A study of Mus musculus with 18 samples.

Results

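Otx2, Pou3f1, Zic2, Zic5, Foxd3, Grhl2 and Sox3 encode transcription factors that are used to tell formative and primed pluripotent cells from naive ones. These 7 genes were chosen by name, with no measured value in the rule but with earlier results of these data known. They are 7 of the 35773 genes counted by RNA-seq in 18 libraries of mouse pluripotent stem cells. All 7 passed the filter on low counts (at least 10 counts in at least 3 libraries), as did 16901 genes in all. The libraries form 6 groups of 3. Naive ESC were embryonic stem cells kept in 2iL medium. AFSC were primed cells derived from blastocysts with activin A and FGF2. ASC came from AFSC moved to ABCL, a medium with activin A, BMP4, CHIR99021 (a GSK3 inhibitor that turns on Wnt signalling) and LIF. ESC-ASC were naive ESC converted in ABCL. EpiLC are epiblast-like cells, and EpiSC are epiblast stem cells. The labels give every group as strain 129S2/SvPasCrl and wild type, whereas the study's methods describe embryos of mixed background that carry a reporter. ASC were grown from colonies picked for that reporter, a GFP driven by the Oct4 distal enhancer. The study's text calls the libraries of a group biological replicates, but the labels do not say that they came from separate cultures, so p-values measure the spread between these libraries, which may be technical.

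Pluripotent cells of the blastocyst are naive. As the embryo implants, they pass through a formative state, in which they become competent to form germ layers and germ cells, and then a primed state that EpiSC resemble. Otx2 is a homeodomain factor that starts this change, and Pou3f1 (also called Oct6) is a POU factor that appears with it. Zic2 and Zic5 are neighbouring zinc finger genes of the epiblast and neural plate. Sox3 is a SoxB1 factor, in the same group as Sox1 and Sox2. Grhl2 is a grainyhead factor that keeps epithelial genes accessible, and Foxd3 is a forkhead factor needed to keep the epiblast, known in both naive and formative cells and later in neural crest.

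In GRCm38, Otx2 (ENSMUSG00000021848) lies at chr14:48657679-48667644 on the minus strand and Pou3f1 (ENSMUSG00000090125) at chr4:124656807-124660655 on the plus strand. Zic2 (ENSMUSG00000061524, chr14:122475435-122479852, plus) and Zic5 (ENSMUSG00000041703, chr14:122456795-122465677, minus) sit back to back, 9757 bp apart. Foxd3 (ENSMUSG00000067261) lies at chr4:99656299-99658622 on the plus strand, Grhl2 (ENSMUSG00000022286) at chr15:37233036-37363569 on the plus strand and Sox3 (ENSMUSG00000045179) at chrX:60891366-60893430 on the minus strand. Pou3f1, Foxd3 and Sox3 are each 1 exon, while the exons of Grhl2 fall into 18 blocks. Exon sequence of Pou3f1 overlaps the antisense gene Gm2164 (0 to 15 counts a library), that of Grhl2 the antisense gene Gm16136 (0 to 30 counts) and that of Foxd3 the miRNA gene Gm23366 (2 to 30 counts), and reads in an overlap were counted for both genes without regard to strand, so a few of these members' counts may come from the overlapping gene.

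Promoter sequences were at hand for 3 of the 7 members, from RefSeq on GRCm38.p6. Printed here are the 250 bases before a start site of Otx2 and Zic5, which both rose from ESC to EpiLC, and of Foxd3, which did not. Otx2 has 4 start sites in the table. The window shown is the 1 that held a match to any motif searched. Capitals mark that match, to the OTX motif TAATCC read on the other strand, 211 bases before the start.
Otx2, chr14:48665110-48665359, minus strand: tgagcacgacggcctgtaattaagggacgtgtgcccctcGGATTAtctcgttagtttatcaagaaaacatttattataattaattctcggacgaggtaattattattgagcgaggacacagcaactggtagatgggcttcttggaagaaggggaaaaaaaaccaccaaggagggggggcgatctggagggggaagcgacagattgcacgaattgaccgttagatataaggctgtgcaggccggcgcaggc
Zic5, chr14:122465659-122465908, minus strand: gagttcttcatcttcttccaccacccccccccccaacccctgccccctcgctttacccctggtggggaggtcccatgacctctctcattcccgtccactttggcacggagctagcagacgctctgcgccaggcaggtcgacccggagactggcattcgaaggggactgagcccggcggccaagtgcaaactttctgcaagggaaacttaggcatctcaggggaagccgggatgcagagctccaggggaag
Foxd3, chr4:99656049-99656298, plus strand: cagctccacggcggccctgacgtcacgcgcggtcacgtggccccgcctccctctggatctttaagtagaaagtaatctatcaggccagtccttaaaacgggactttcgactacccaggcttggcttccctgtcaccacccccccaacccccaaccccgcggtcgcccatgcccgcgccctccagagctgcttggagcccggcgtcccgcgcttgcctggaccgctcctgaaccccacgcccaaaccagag
The motifs searched on both strands were TAATCC (OTX), ATGCAAAT (POU octamer), CATTGT (SOX), AACNGGTT (GRHL) and CCTGCTG (ZIC). Of 32841 promoters of the same length, 6.25% held the OTX motif, 1.60% the POU octamer, 10.7% the SOX motif, 1.79% the GRHL motif and 8.44% the ZIC motif. A match is a description of the letters only. The Foxd3 window was 65.6% GC and the Zic5 window 62.4%, against a median of 52.4% over all promoters, and the 4 Otx2 windows ran from 42.0% to 53.6%. CpG pairs stood at 0.854 of the number expected from base composition in Foxd3 and at 1.03 in the Otx2 window shown, against a median of 0.374. The ratio was 0.458 in Zic5 and 0.529 to 0.550 in the other 3 Otx2 windows.

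Total counts ran from 4961934 to 9906473 a library in 5 groups and from 17813619 to 18071600 in ESC-ASC. Depth, and any batch that goes with it, therefore cannot be told apart from that group. Replicate 1 stood apart from replicates 2 and 3 in ESC, ASC, EpiLC and AFSC, where a chi-square of their counts per degree of freedom was 21.5 to 100.1, against 1.65 to 11.8 for replicate 2 against 3. The labelled cell types were checked on marker lists. Of 12 naive genes, all 12 fell from ESC in each of EpiLC, AFSC and EpiSC (Esrrb, 735 ± 120.2 normalized counts per kb in ESC and 0.944 ± 0.360 in EpiSC), 7 fell in ESC-ASC and 1, Dppa3, in ASC. Of 10 primitive streak genes, 10 rose from ESC in EpiSC, 8 in AFSC and 4 in EpiLC. In EpiLC 3 of them fell (T, Gsc and Evx1), in AFSC 1 fell (Gsc), and in EpiSC none.

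Levels are counts divided by DESeq2 size factors and by exon length in kb, given as mean ± SD over 3 libraries. Folds, standard errors and p-values come from a quasi-likelihood fit in edgeR, with p adjusted by Benjamini-Hochberg over all 16901 genes. A gene is said to rise or fall where the adjusted p is below 0.05 and the change beyond 1 on the log2 scale. Across the 6 groups, the highest mean over the lowest was 270.4 for Pou3f1, 158 for Sox3, 17.9 for Zic2, 14.5 for Otx2, 11.9 for Foxd3, 10.004 for Zic5 and 7.31 for Grhl2. Ordered by mean level, the 7 genes have 35 steps between neighbouring groups, of which 24 passed an adjusted p of 0.05 and 11 did not. The order was taken from these same levels, and no such share was computed over all genes. The count is thus a description and not a test. Without replicate 1 of ESC, ASC, EpiLC and AFSC together, the counts of members that rose or fell, given comparison by comparison further on, were the same in every comparison except ESC-ASC minus ASC (4 lower in place of 5).

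**Figure D1:**
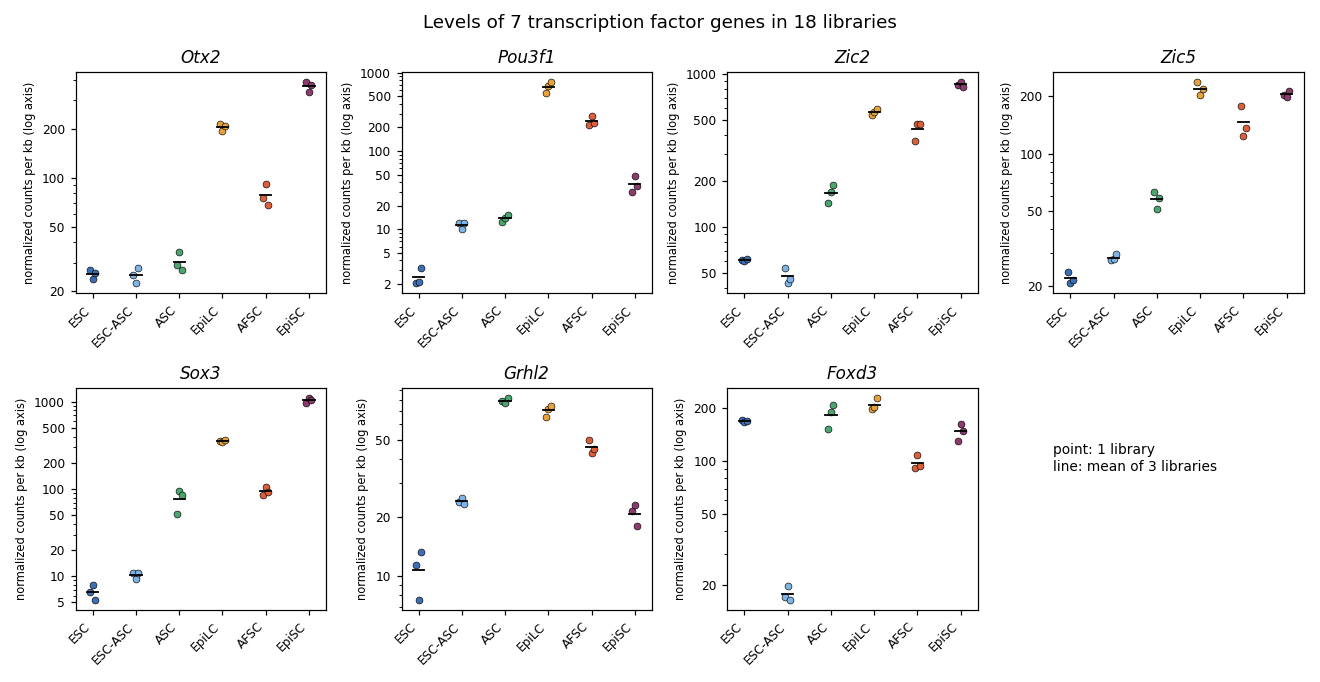
Level of each of the 7 genes (normalized counts per kb, log axis) in every library, by group; a point is 1 library and a line the mean of 3. Pou3f1 peaks in EpiLC (mean 662), Otx2, Zic2 and Sox3 in EpiSC, Grhl2 in ASC and EpiLC, and Foxd3 is low in ESC-ASC (mean 17.7).

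Otx2 was low in the 3 groups kept with naive or ABCL media and high in EpiLC and EpiSC. Its level was 27.2, 24.0 and 25.9 normalized counts per kb in the ESC libraries, 25.3, 22.4 and 27.8 in ESC-ASC and 28.9, 35.2 and 27.1 in ASC. These 9 libraries overlap, and neither ESC over ESC-ASC (adjusted p = 0.830) nor ASC over ESC (adjusted p = 0.223) passed the edgeR test. AFSC stood above them at 74.5, 91.0 and 68.3, EpiLC at 213.6, 194 and 209 and EpiSC at 388, 336 and 371, with no overlap between these groups. Each of these steps passed, and the last, EpiSC over EpiLC, was 1.76-fold (log2 0.81 ± 0.12 SE, adjusted p = 2.13e-05 in edgeR). AFSC, primed by label, held 2.64-fold less Otx2 than EpiLC. In RNA from bulk cells, fewer cells with a transcript and less of it per cell cannot be told apart.

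Pou3f1 had the widest range of the 7 and a different peak. In ESC it was at the edge of detection, with 4, 7 and 11 raw counts in the 3 libraries (mean 2.45 ± 0.640 normalized counts per kb). EpiLC held 549.95, 677 and 760.1 normalized counts per kb, AFSC 212, 282 and 225 and EpiSC 30.3, 47.4 and 35.5. Every EpiLC library was thus above every AFSC library, and every AFSC library above every EpiSC library. Pou3f1 was 261-fold higher in EpiLC than in ESC (log2 8.03 ± 0.25 SE), and EpiSC held 17.6-fold less than EpiLC (adjusted p = 2.07e-12 in edgeR). ASC (12.3, 14.0 and 15.4) and ESC-ASC (11.95, 10.2 and 12.02) lay close together, above ESC and below EpiSC. The step between ASC and ESC-ASC did not pass (1.22-fold, adjusted p = 0.254 in edgeR), although their libraries did not overlap.

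By its level of Zic2, ESC-ASC came lowest, then ESC, ASC, AFSC, EpiLC and EpiSC. The ESC libraries held 61.5, 60.2 and 62.4 normalized counts per kb and the ASC libraries 143, 169.8 and 189.7, which is 2.69-fold higher. AFSC held 365, 468 and 473, EpiLC 542, 565 and 589.7 and EpiSC 852, 887 and 828. No 2 neighbouring groups of that order overlapped. The smallest steps were ESC over ESC-ASC (53.9, 43.1 and 46.3 in ESC-ASC; log2 0.38 ± 0.14 SE, adjusted p = 0.0249 in edgeR) and EpiLC over AFSC (log2 0.38 ± 0.13 SE, adjusted p = 0.0189). EpiLC over AFSC no longer passed without AFSC replicate 1 (adjusted p = 0.0921) or EpiLC replicate 3 (0.0634), and ESC over ESC-ASC no longer passed without replicate 2 or 3 of either group (0.0518 to 0.148).

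Zic5 followed Zic2 in ESC, ASC and AFSC but not at the top of the order. It stood at 23.8, 20.7 and 21.4 normalized counts per kb in ESC, 27.5, 27.8 and 29.6 in ESC-ASC and 62.5, 51.0 and 58.3 in ASC. ESC-ASC over ESC was a small step (log2 0.36 ± 0.14 SE, adjusted p = 0.0388 in edgeR) that did not pass without ESC replicate 2 or 3 or ESC-ASC replicate 1 or 3 (0.0510 to 0.116). AFSC held 177, 124 and 136, EpiSC 204, 199 and 215 and EpiLC 238, 203 and 218. The EpiLC and EpiSC libraries overlap, and their difference did not pass (1.08-fold, adjusted p = 0.4998 in edgeR), whereas Zic2 was 1.495-fold higher in EpiSC than in EpiLC (adjusted p = 0.000781). From ESC to EpiLC, Zic2 rose 9.25-fold and Zic5 10.1-fold. The ratio of Zic2 to Zic5 level was 4.16 ± 0.299 in EpiSC, from 3.86 to 4.46, and no library of another group reached that range (highest 3.77, in AFSC). It was lowest in ESC-ASC, at 1.69 ± 0.233, against 2.80 ± 0.184 in ESC. Replicate 1 of AFSC gave 2.06 and replicates 2 and 3 gave 3.77 and 3.47, and Zic5 there was 1.36 times the mean of the other libraries. By GC of the longest transcript, Zic2 (59.9%) is in the top decile of genes and Zic5 (49.8%) in the fifth. Over these deciles, the median log2 difference of ESC-ASC minus ESC was -0.11 and 0.06. The part of GC content and depth in the ratio was not tested.

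Sox3 was lowest in ESC and highest in EpiSC. ESC held 6.67, 7.89 and 5.40 normalized counts per kb, from 7, 14 and 10 raw counts, and ESC-ASC 10.8, 9.23 and 10.96. That step missed the threshold (log2 0.61 ± 0.28 SE, adjusted p = 0.0645 in edgeR), although the libraries did not overlap. ASC held 51.7, 96.0 and 85.0 and AFSC 85.4, 105 and 93.3, which overlap (adjusted p = 0.114, and 0.0240 without ASC replicate 2). EpiLC stood at 359, 346 and 370.0 and EpiSC at 977, 1104 and 1065, so EpiSC was 2.90-fold above EpiLC and 155-fold above ESC. ASC replicate 1 held 0.571 of the mean Sox3 level of replicates 2 and 3. In that library, genes in the top decile by GC of their longest transcript, Sox3 among them at 66.4%, had a median log2 difference of -0.28 from the other replicates, and those in the lowest decile a median of 0.45. The part of this in the Sox3 value was not tested.

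Sox2, a core pluripotency factor of the same SoxB1 group, ran the other way. Its level was 2329 ± 316 normalized counts per kb in ESC, 1773 ± 319 in ASC, 1453 ± 121 in ESC-ASC, 564 ± 140.2 in AFSC, 442 ± 85.2 in EpiLC and 76.1 ± 9.12 in EpiSC. It fell 30.9-fold from ESC to EpiSC (log2 -4.95 ± 0.22 SE, adjusted p = 3.68e-13 in edgeR). Per library, the ratio of Sox3 to Sox2 level went from 0.00248 to 0.00360 in ESC and from 0.666 to 0.916 in EpiLC to between 11.4 and 16.4 in EpiSC. EpiSC was the group in which Sox3 exceeded Sox2, in 3 of 3 libraries. In ASC the ratio was 0.0368 to 0.0497 and in ESC-ASC 0.00695 to 0.00734, so the ranges of these groups do not overlap. Sox1, the other SoxB1 gene and a marker of neural plate, had its highest mean in EpiLC, at 9.14 ± 2.08.

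Grhl2 peaked in ASC and EpiLC, not in EpiSC. The ASC libraries held 78.8, 76.8 and 81.5 normalized counts per kb and the EpiLC libraries 65.5, 72.0 and 74.6. This difference of 1.10-fold did not pass (adjusted p = 0.441 in edgeR), although the libraries did not overlap. AFSC held 49.9, 42.7 and 44.8, ESC-ASC 24.0, 25.0 and 23.6, EpiSC 21.7, 23.05 and 18.03 and ESC 11.4, 7.61 and 13.4. EpiSC and ESC-ASC did not differ detectably (adjusted p = 0.235), although their libraries did not overlap. EpiSC lay 3.42-fold below EpiLC (adjusted p = 1.57e-08). Grhl2 was 1.70-fold higher in ASC than in AFSC (log2 0.76 ± 0.15 SE, adjusted p = 0.000179) and Foxd3 1.84-fold (adjusted p = 2.05e-05), both inside the fold limit, and no other member was higher in ASC than in AFSC.

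Grhl3, a relative that is used in surface epithelium, was high where Grhl2 was low in ESC. Grhl3 stood at 90.6 ± 14.3 normalized counts per kb in ESC, 129 ± 9.83 in ESC-ASC and 82.9 ± 14.7 in ASC, but at 8.17 ± 0.455 in EpiLC, 6.63 ± 1.29 in AFSC and 7.92 ± 0.0666 in EpiSC. ASC was the group in which the 2 levels were closest, with Grhl2 at 79.0 ± 2.37. From ESC to EpiLC Grhl2 rose 6.58-fold and Grhl3 fell 11.04-fold (adjusted p = 1.70e-11 in edgeR). Grhl1 stayed between 4.99 and 19.7 in the 6 groups.

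**Figure D2:**
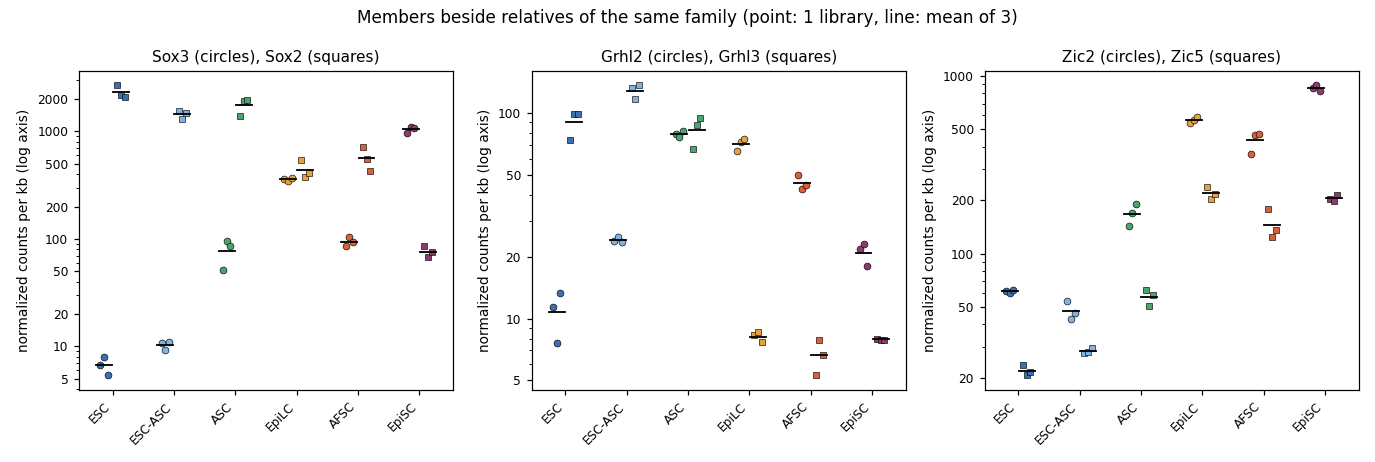
Levels (normalized counts per kb, log axis) of Sox3 and Sox2, Grhl2 and Grhl3, and Zic2 and Zic5 in every library, by group; a point is 1 library and a line the mean of 3. Sox3 (mean 1049) is above Sox2 (76.1) in EpiSC and far below it in ESC, and Grhl3 drops to means of 6.63 to 8.17 in EpiLC, AFSC and EpiSC.

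Foxd3 stood apart in ESC-ASC and differed less among the other groups. It stood at 173, 167 and 170.4 normalized counts per kb in ESC, 153, 189 and 210.03 in ASC, 197, 204 and 228 in EpiLC and 131, 164 and 149 in EpiSC. These groups follow each other without a step that passed (EpiSC to ESC adjusted p = 0.199, ESC to ASC 0.595, ASC to EpiLC 0.173, all in edgeR). The EpiSC and ESC libraries nevertheless did not overlap. The ends of this order, EpiSC and EpiLC, did differ, with EpiLC 1.43-fold higher and no overlap of the libraries (log2 -0.52 ± 0.14 SE for EpiSC minus EpiLC, adjusted p = 0.00371), a change inside the fold limit. AFSC held 91.6, 109 and 94.1, below EpiSC by 1.496-fold (adjusted p = 0.00243). ESC-ASC held 16.97, 19.5 and 16.4, below every other library of the series, from 78, 93 and 76 raw counts in the deepest libraries. Foxd3 was 9.69-fold lower in ESC-ASC than in ESC (log2 -3.28 ± 0.15 SE, adjusted p = 4.44e-12) and 10.3-fold lower than in ASC (adjusted p = 1.21e-11).

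The Foxd3 transcript is 65.1% GC, a value above that of 98.9% of the genes tested, and the ESC-ASC libraries differ from the rest in depth. Over the 1684 genes of the top GC decile (58.3% to 87.6%), the median log2 difference was -0.11 for ESC-ASC minus ESC and -0.29 for ESC-ASC minus ASC, against 0.06 and -0.03 in the fifth decile. The other members of the top decile, Pou3f1 (63.9%), Zic2 (59.9%) and Sox3, differed from ESC in ESC-ASC by 2.15, -0.38 and 0.61 on the log2 scale. The part of GC content and depth in the Foxd3 value was not tested.

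Against ESC, the comparisons share the same 3 control libraries, so the counts that follow are not independent of each other. The members were also named with earlier results of these data known, so these counts describe them and are not a test. In EpiLC, 6 of 7 members rose and none fell, while 18% of all genes tested rose and 15.9% fell. In AFSC, 6 rose and none fell (19.9% and 19.6% of all genes). In EpiSC, 5 rose and none fell (19% and 22%), with Grhl2 just under the fold limit at log2 0.95 ± 0.17 SE. In ASC, Zic2, Zic5, Grhl2, Sox3 and Pou3f1 rose and none fell, 5 of 7 (18.5% and 7.26%). In ESC-ASC, only Pou3f1 and Grhl2 rose and Foxd3 fell (19.3% and 17.1%), and without ESC replicate 2 Grhl2 dropped under the fold limit (log2 0.94). The median log2 change of the 7 members was 3.21 in EpiLC, 2.74 in AFSC, 3.79 in EpiSC, 1.43 in ASC and 0.36 in ESC-ASC, where the medians of all genes lay between -0.04 and 0.06.

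**Figure D3:**
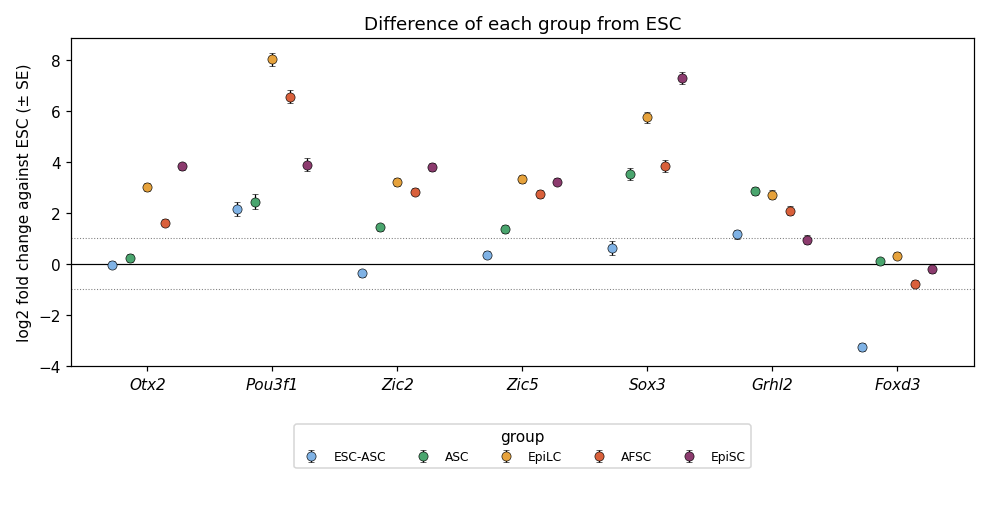
Log2 fold change against ESC for each of the 7 genes in the other 5 groups, with the standard error of the edgeR fit as bars; dotted lines mark the fold limit of 1. Pou3f1 reaches 8.03 in EpiLC and Sox3 7.28 in EpiSC, while Foxd3 lies within the limit except in ESC-ASC at -3.28.

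The 3 groups of formative and primed cells differed among themselves in which members were high. From EpiLC to EpiSC, Sox3 rose (1 of 7; 11.9% of all genes) and Pou3f1 and Grhl2 fell (2 of 7; 16.7%). Otx2 differed by 1.76-fold and Zic2 by 1.495-fold in the direction of EpiSC, both inside the fold limit. From EpiLC to AFSC, none rose (12.7% of all genes) and Otx2, Pou3f1, Foxd3 and Sox3 fell (4 of 7; 13.4%). From AFSC to EpiSC, Otx2 and Sox3 rose (8.19%), by 4.63-fold and 10.97-fold, and Pou3f1 and Grhl2 fell (12.6%), by 6.36-fold and 2.21-fold. Sox3 was thus the member with the largest difference between the 2 primed groups, at log2 3.46 ± 0.17 SE (adjusted p = 1.75e-11 in edgeR).

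The study asks what ABCL medium does to primed and to naive cells, and the change of each member was compared between the starting cells. From AFSC to ASC, none of the 7 rose (22.7% of all genes did) and Otx2, Pou3f1, Zic2 and Zic5 fell (16.7%), Pou3f1 by 17.5-fold and the others by 2.59-fold to 2.65-fold. Compared with EpiLC, ASC had none higher (20.7%) and 5 lower (14.1%), and the 2 that did not pass were Foxd3 (1.16-fold, adjusted p = 0.173) and Grhl2. Compared with ESC, ESC-ASC held 4.43-fold more Pou3f1 and less Foxd3. The study converted 2 ESC lines in ABCL, and its text does not say whether the ESC libraries came from them. Line, depth and any batch therefore cannot be told apart from medium in this comparison or in the difference of shifts. From AFSC to ASC, picking of GFP-positive colonies cannot be told apart from medium either, and it enters the difference of shifts too. The difference between the shifts, (ASC minus AFSC) minus (ESC-ASC minus ESC), was tested itself in edgeR: Foxd3 was the 1 member above 1 on the log2 scale (24.4% of all genes) and Otx2, Pou3f1, Zic2 and Zic5 were below -1 (20.8%). Pou3f1 gave -6.28 ± 0.33 SE and Foxd3 4.16 ± 0.21 SE, while Grhl2, higher after ABCL from either start, gave -0.39 ± 0.22 SE, which did not pass (adjusted p = 0.143). By adjusted p alone, with no fold limit, the shifts of 6 of the 7 members differed, and so did those of 58.5% of all genes. This contrast equals (ASC minus ESC-ASC) minus (AFSC minus ESC). For Pou3f1 and Otx2, ASC and ESC-ASC did not differ detectably (adjusted p = 0.254 and 0.122 in edgeR). Their difference of shifts thus mainly restates the gap between AFSC and ESC, 6.56 and 1.61 on the log2 scale.

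**Figure D4:**
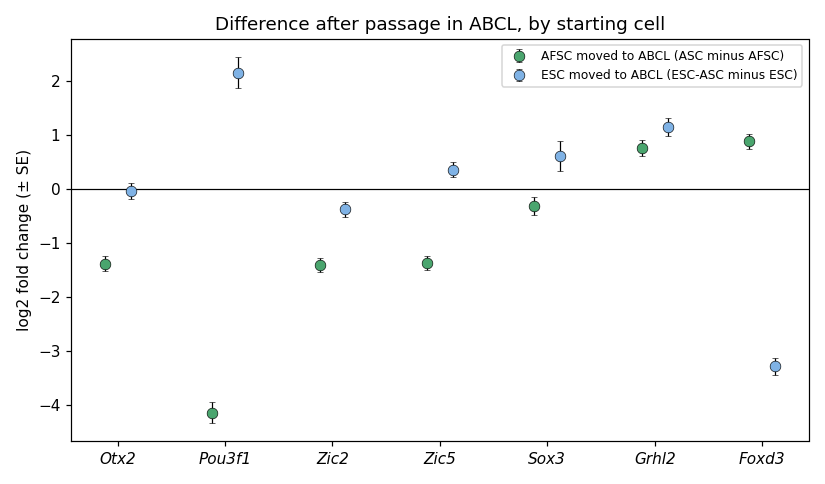
Log2 fold change of each gene between cells in ABCL and cells of the starting type, AFSC (ASC minus AFSC) or ESC (ESC-ASC minus ESC), with the standard error of the edgeR fit as bars. Pou3f1 lies at -4.13 from AFSC and 2.15 from ESC, Foxd3 at 0.88 and -3.28, and Grhl2 is above 0 from both.

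The 2 kinds of cell in ABCL did not reach the same levels of these genes. Between ASC and ESC-ASC, none of the 7 was higher in ESC-ASC (8.04% of all genes) and Zic2, Zic5, Foxd3, Grhl2 and Sox3 were lower (5 of 7; 16.5%). Sox3 was 7.45-fold, Zic2 3.49-fold, Grhl2 3.25-fold and Zic5 2.01-fold lower, each with libraries that did not overlap. Otx2 (adjusted p = 0.122 in edgeR) and Pou3f1 (0.254) did not differ detectably. Zic5 sits at the fold limit (log2 -1.01) and came inside it without ASC replicate 1 (-0.94), ASC replicate 3 (-0.996) or ESC-ASC replicate 1 (-0.97). Sox3, Zic2 and Foxd3, and also Pou3f1, are in the top GC decile, where the median log2 difference of ESC-ASC minus ASC was -0.29. The part of GC content in these values was not tested. The groups differ in depth and in the line of origin as well as in the starting cell, and ASC came from picked colonies. These differences between the groups therefore cannot be told apart.

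Other genes of the formative state, from a list of 11, were also read in each group. Of these, 9 rose from ESC in EpiLC, 10 in AFSC, 7 in EpiSC and 7 in ASC, and none fell, while in ESC-ASC 4 rose and 2 fell. The growth factor Fgf5 was at 0 in all ESC libraries, at 0.711 ± 0.236 normalized counts per kb in ASC, 266 ± 18.2 in EpiLC, 535 ± 119 in AFSC and 784 ± 77.8 in EpiSC. The DNA methyltransferase gene Dnmt3a had its peak in EpiLC as Pou3f1 did, at 304 ± 54.6, against 7.13 ± 1.05 in ESC, 38.2 ± 1.01 in ASC and 46.6 ± 1.45 in ESC-ASC. From AFSC to ASC, 6 of the 11 fell and 1 rose. The median log2 change against ESC was 3.89 in EpiLC, 2.46 in AFSC, 1.40 in EpiSC, 2.22 in ASC and 0.50 in ESC-ASC.

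Epithelial genes, the class that Grhl2 acts on, were read from a list of 14, of which 13 passed the filter. Against ESC, 8 rose and 1 fell in EpiLC, 7 rose in AFSC, 7 in ESC-ASC and 4 in ASC with none falling, and 2 rose and 6 fell in EpiSC. From EpiLC to EpiSC, where Grhl2 fell, 12 of the 13 fell (16.7% of all genes did), with a median of -2.14 on the log2 scale. From AFSC to EpiSC 12 fell (12.6% of all genes), with a median of -2.01. The part of Grhl2 in these changes was not tested. The junction gene Cldn4 went from 242 ± 25.5 in EpiLC to 2.41 ± 0.231 in EpiSC and the vesicle gene Rab25 from 114 ± 0.965 to 2.80 ± 0.555. E-cadherin (Cdh1) stood at 909 ± 57.7 in EpiLC and 174 ± 3.66 in EpiSC. The order of Grhl2 was not that of all epithelial genes in ABCL: Cldn4 stood at 1589 ± 133 and the splicing factor Esrp1 at 69.8 ± 2.16 in ESC-ASC, against 431 ± 75.8 and 14.0 ± 0.905 in ASC, where Grhl2 was 3.25-fold higher.

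Of 16 relatives of the members in their families that were read here, 9 passed the filter. Among these, Pou3f3 passed only through ESC (12, 11 and 14 raw counts) and Zic1 only through ESC-ASC (18, 20 and 33), the deepest libraries. Pou3f2 passed only through ESC (15 and 13) and EpiLC (13). For these genes, a fall from ESC or a rise in ESC-ASC was favoured by the filter itself. From ESC to EpiSC none of the 9 rose and 7 fell (19% and 22% of all genes). From ESC to AFSC none rose and 7 fell (19.9% and 19.6% of all genes). In these comparisons 5 and 6 of the 7 members rose. In EpiLC 1 rose and 5 fell, in ASC none rose and 3 fell, and in ESC-ASC 1 rose and 3 fell. The median log2 change of the relatives was -2.90 in EpiSC, -3.26 in AFSC, -2.24 in EpiLC, -0.16 in ASC and -0.69 in ESC-ASC.

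Several of the members also serve neural, neural crest or other lineages, so markers of those cells were read. The summed level of 12 neural genes ran from 680.4 to 699.9 in ESC, 114 to 152 in ASC, 121 to 131 in ESC-ASC, 225 to 231 in EpiLC, 299.6 to 377 in AFSC and 384 to 391 in EpiSC. Most of it was Tubb3 and Nes, while Pax6 and Neurog2 stayed below 1 in all 6 group means. From ESC to EpiSC, 2 of the 7 neural genes that passed the filter rose and 3 fell. The 9 neural crest genes summed to between 36.0 and 187 in every library, with 2 of 5 higher and 1 lower in EpiSC than in ESC. In EpiSC, Ngfr (82.1, against 97.3 in ESC) made most of the sum. Sox10 stood at 17.99 there, against 0 in ESC, and Tfap2a at 1.14, against 58.6. In each of EpiLC and AFSC, 3 of the 5 neural crest genes were higher than in ESC and 2 lower. Fibroblast genes (9) summed to 46.3 to 103 in ESC, 79.3 to 125 in ASC, 51.6 to 61.8 in ESC-ASC, 115.8 to 128 in EpiLC, 37.2 to 62.8 in AFSC and 27.8 to 32.4 in EpiSC. EpiLC thus lay above every ESC library, and the collagen-binding gene Dcn had a mean of 64.6 there, against 14.5 in ESC and below 1 in the other groups. Primitive endoderm genes (6) summed to between 9.58 and 25.1 outside EpiSC and to 70.2 to 71.5 in EpiSC, where Sox17 (34.6) and Gata6 (26.5) made most of it. Other genes of that list went the other way in EpiSC: Gata4 stood at 1.53, against 5.03 in ESC, and Dab2 at 2.27, against 5.26. In EpiLC, 2 fibroblast genes were higher and 2 lower than in ESC. In EpiSC, 2 fibroblast genes were higher and 5 lower, and 3 primitive endoderm genes were higher and 2 lower, of 7 and 5 that passed the filter. The part of these cells in the members' values was not tested.

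Over the 18 libraries, Pearson's r of log2(normalized count + 1) was 0.909 to 0.970 among Otx2, Zic2, Zic5 and Sox3. Foxd3 gave 0.226 to 0.541 and Grhl2 0.177 to 0.658 with the other members. The 18 libraries fall into 6 groups and are not 18 independent points, so these values are descriptions. The genes most like Otx2 among 10730 genes with a mean of at least 50 normalized counts were Hes6 (r = 0.965), Lzts2 and Cdk2ap1, and those most like Pou3f1 were Acsl5 (0.975), Jade2 and Enc1. Zic5 stood the second in likeness to Zic2 (0.970), after Mrc2 (0.974), and Zic2 the second to Sox3 (0.958), after Sema4c (0.959). Slc35d3 (0.978), Trio and Zfp467 were most like Zic5. Dusp9, which encodes an ERK phosphatase, was most like Grhl2 (0.951), with means of 45.1 in ESC, 114 in ESC-ASC, 64.1 in EpiSC, 324 in AFSC, 669.9 in EpiLC and 1185 in ASC. The genes most like Foxd3 were Ccdc86 (0.965), Gm10073 (0.963) and Setd1b (0.954), all low in ESC-ASC: Gm10073 had a mean of 1.004 there and of at least 134 elsewhere, and Setd1b 3.15 against at least 16.2.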

How the data were processed

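RNA was sequenced in 18 libraries, in 6 groups of 3. The authors aligned reads with TopHat2 to GRCm38, guided by Ensembl 86, and deposited raw counts per gene from featureCounts 1.5.0-p1, unnormalized, with exon length. Reads that map to several places or overlap several genes were counted for each, with no strand option. Groups and replicate numbers were taken from the labels. Reads of a gene and its antisense partner therefore cannot be told apart. Symbols came from a table of gene IDs, found for 35514 of 35773 genes.

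The 16901 genes that reached 10 counts in 3 or more libraries were fitted in edgeR 4.0.16 (R 4.3.3; TMM, robust quasi-likelihood), with all 18 libraries in 1 fit and no covariate. Benjamini-Hochberg adjustment was made within each comparison, with a threshold of 0.05 and a log2 change beyond 1. Levels used size factors from DESeq2 1.42.0 and length in kb. Tested on simulated data for EpiSC minus EpiLC, the fit recovered 100% of 200 changed genes of 16901, with 1.48% false calls. The change was set at 2 on the log2 scale, and recovery of smaller changes was not tested. Genes of low mean count were not among those changed, all genes were given the same dispersion, and replicate 1 was not made to stand apart. These rates may therefore not hold for the real counts. GC content was that of the longest transcript, found for 99.6% of genes tested. Alternatives were DESeq2 size factors, no filter, DESeq2's test, a replicate block, fits of 2 groups and leaving out each library. Leaving out replicate 1 of ESC, ASC, EpiLC and AFSC together was chosen after seeing the data.

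The members, the gene lists and the comparisons were chosen with earlier results of these data known. Named genes are the members, genes of the lists, and for each member the 3 protein coding genes with the highest Pearson r of log2(normalized count + 1) and a mean of at least 50. The lists were relatives, formative, epithelial, naive, primitive streak, neural, neural crest, fibroblast and primitive endoderm genes. Some results on relatives are not reported here. Intervals and errors cover the spread between libraries only.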

Additional observations from a re-analysis of the deposited data

Results flagged for a closer look

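For 6 of the 7 members, the log2 change between starting cells and cells in ABCL was not the same from AFSC as from ESC. This was tested in edgeR as the difference itself, (ASC minus AFSC) minus (ESC-ASC minus ESC). By adjusted p alone, it also passed for 58.5% of all 16901 genes. Beyond the fold limit, 1 member was higher and 4 were lower, against 24.4% and 20.8% of all genes. On the log2 scale, the difference was -6.28 for Pou3f1, 4.16 for Foxd3, -1.73 for Zic5, -1.34 for Otx2, -1.03 for Zic2 and -0.93 for Sox3. The adjusted p was 0.0203 for Sox3 and 0.000123 or lower for the other 5. For Sox3 it was 0.0856 without ESC replicate 3. Zic2 lay near the fold limit, between -1.14 and -0.92 with 1 library left out. For Pou3f1 and Otx2, ASC and ESC-ASC did not differ detectably (adjusted p = 0.254 and 0.122 in edgeR). Their difference of shifts thus mainly restates the gap between AFSC and ESC, 6.56 and 1.61 on the log2 scale. The ESC-ASC libraries were sequenced deeper than all others, which cannot be told apart from the group. The ESC libraries may also come from another line than ESC-ASC. ASC were grown from picked colonies, and that picking cannot be told apart from medium.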

How the results depend on the processing

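Of 1351 values of the members' log2 fold changes under other settings, 1321 kept direction and side of the threshold, 12 newly passed, 14 no longer passed and 4 changed sign. Leaving out 1 library at a time, Foxd3 in ASC minus ESC ran from -0.0135 (without ASC replicate 3) to 0.210 and Otx2 in ESC-ASC minus ESC from -0.103 to 0.0645 (without ESC-ASC replicate 2). Otx2 in that comparison was also 0.0187 with no count filter and 0.000795 without the first libraries of ESC, ASC, EpiLC and AFSC together. None of these passed in any setting. Members higher in ESC-ASC than in ESC numbered 1 to 2 with each library left out. The order of groups by Otx2 level had 0 to 1 pair exchanged, ESC and ESC-ASC, with the exchange on leaving out ESC replicate 1 or ESC-ASC replicate 2. Zic2 in AFSC minus EpiLC had an adjusted p of 0.100 with no filter and 0.103 in a fit of those 2 groups. Zic2 and Zic5 in ESC-ASC minus ESC also missed the threshold when single libraries were left out, with adjusted p up to 0.148 and 0.116. Sox3 in ASC minus AFSC passed without ASC replicate 2 (adjusted p = 0.0240), and Grhl2 passed in the difference of shifts without ESC replicate 3 (0.0325). For the other gene lists, 126 of 2376 counts under other settings moved by over 1.5 times, from counts of 5 genes or fewer. Libraries with the same replicate number had a mean r of deviations of 0.08 over 45 pairs, from -0.21 to 0.46, and since not every pair was above 0.1 the numbers were not taken as pairs. In all 6 groups, replicate 1 was above the other replicates in the lowest GC decile (median log2 difference 0.02 to 0.45) and below them in the top decile (-0.28 to -0.01). With the replicate number as a block, Foxd3 in EpiLC minus ESC (log2 0.31, adjusted p = 0.0393) and in ASC minus EpiSC (0.0376) and Sox3 in ESC-ASC minus ESC (0.0474) newly passed. Depth limits the ESC values of Pou3f1 and Sox3, which rest on 22 and 31 counts in all.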
